A study of Mus musculus with 20 samples.

Results

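The genes described here are the mouse Zfp genes, the zinc finger protein genes whose symbol is Zfp followed by a number. They were chosen by symbol alone from the genes listed in either deposited table, with 1 gene left out. The rule found 163 genes (162 symbols) among 8114 listed genes. Of these, 149 were among the 7543 genes of the ribosome-bound table, 159 were among the 7917 genes of the total RNA table and 145 were in both.

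Oocytes came from 3-week-old C57BL/6 females carrying the RiboTag and Zp3-Cre. Zp3-Cre acts in growing oocytes, where it switches on a tagged ribosomal protein, so that ribosomes and the mRNA on them can be pulled down from oocyte lysate. All females had 5 IU of PMSG, and oocytes were taken 44 h later, stripped of cumulus cells and held at prophase I in 1 µM cilostamide, an inhibitor of the phosphodiesterase PDE3. After its removal, samples of 200 oocytes were taken at 0 h (prophase I), 2, 4 and 6 h (early, middle and late prometaphase I) and 8 h (metaphase I). Each time had 2 replicates of ribosome-bound RNA and 2 of total RNA, 20 libraries in all. The labels do not say that replicates were separate cultures or animals, so the p-values measure only the spread between these samples, which may be technical.

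A classical C2H2 zinc finger folds a short stretch of protein around a zinc ion held by cysteines and histidines, and rows of such fingers read DNA. Many Zfp proteins also carry a KRAB box, which recruits Trim28 (KAP1) and the histone methyltransferase Setdb1, and KRAB zinc fingers are known for silencing retroelements and keeping imprints. Some genes of the name are known for other work: their products bind RNA, act on the spindle or attach ubiquitin or SUMO. The fully grown oocyte makes almost no new RNA, and during maturation it changes which stored mRNAs are on ribosomes, partly through cytoplasmic polyadenylation elements (CPEs) near the 3′ end of mRNA.

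Most of the set had the fingers its name implies. Of the 160 protein-coding members, 146 had at least 2 C2H2 fingers in an annotated protein (median 10, at most 36), 7 had 1 and 7 had none. A KRAB-A box pattern was found in 80 of the 160, against 0.237% of the other listed coding genes. The median exon length was 4.98 kb for Zfp genes and 4.99 kb for the other genes. The median longest transcript was 3.80 kb against 3.66 kb, and the median 3′ UTR 1358 against 1255 bases, so the family was close to the other genes in length. Their transcripts were lower in GC, with a median of 45.2% against 48.5%. Chromosome 7 held 38 members (23.3%, against 6.26% of other genes) and chromosome 17 held 19 (11.7%, against 3.99%). In all, 58 members lay within 200 kb of another, 23 of them on chromosome 7. Some members shared sequence with other genes, inside or outside the family. At least 10% of the 31-base words of 35 members occurred in transcripts of another gene, on either strand, and 7 members shared at least 50%. The counts of those members may be split with genes that share their sequence.

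The 3′ end sequences below show the CPEs of 8 of the members that changed on ribosomes at 8 h and of Zfp592, to set beside their values. The letters TTTTAT or TTTTAAT were searched on the transcript's strand in the last 100 bases of the 3′ UTR of the longest protein-coding transcript in GENCODE vM21 (mm10), where TTTTAAT can overlap the AATAAA signal. They were in 23 of 160 Zfp genes (14.4%) and in 1590 of 7583 other genes (21.0%). Each line is read 5′ to 3′, with the CPE letters in capitals. Zfp616, Zfp873, Zfp957, Zfp560, Zfp449 and Zfp692 were higher at 8 h, Zfp821 and Zfp185 were lower, and Zfp592 was not called on ribosomes; how a gene was called is given with the comparisons.
Zfp616, chr11:74087221-74087250, + strand: ataataggaaatTTTTAATctcaaaataat
Zfp873, chr10:82061537-82061566, + strand: aatacattaatgTTTTATgattctccttca
Zfp957, chr14:79212371-79212400, - strand: atataaataaatTTTTATtaaactaataaa
Zfp560, chr9:20345150-20345179, - strand: ttaccttttgttTTTTATtaaactaataaa
Zfp449, chrX:56365638-56365667, + strand: atttatacacggTTTTAATaaagtggaaat
Zfp692, chr11:58314584-58314613, + strand: aaataataaatggtaTTTTATacaagtgta
Zfp821, chr8:109724903-109724932, + strand: ggcaaataaattaaTTTTATctttactggc
Zfp185, chrX:73031444-73031473, + strand: ttccgtTTTTAATtatccttgcttaatcca
Zfp592, chr7:81045128-81045157, + strand: ttatatatctatTTTTAATacaaacagtag
Zfp957 and Zfp560 have the same bases from the CPE to the end of the stretch shown. These matches are descriptions of the letters in the window, and members without a match in it also rose. The call of Zfp692 (1.56 on the log2 scale) did not hold without the 0 h replicate 2 (1.32, adjusted p = 0.0574) or the 8 h replicate 2 (0.99, adjusted p = 0.174). That of Zfp185 (-1.63) did not hold without the 0 h replicate 2 (-0.68, adjusted p = 0.397), the 8 h replicate 1 (-1.66, adjusted p = 0.0787) or the 8 h replicate 2 (-1.60, adjusted p = 0.0999). That of Zfp560 (1.05) did not hold after a correction for exon length and transcript GC (0.61, adjusted p = 0.0737 in limma).

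All values are scaled CPM as deposited (reads per gene, relative to library size), and the 2 tables were scaled separately, so levels are compared only within a table. Library totals lay between 968768 and 1052767. Taking the smallest step between values as 1 read, a value of 10 stood for 282 to 533 reads, depending on the library. Replicates correlated at r = 0.949 to 0.974 across genes. All 12 oocyte markers were in the ribosome-bound table. Their summed value there was 50485 and 41773 at 0 h and 22426 and 25891 at 8 h. On ribosomes at 8 h, Mos and Oosp1 rose (log2 changes 1.76 ± 0.17 and 2.62 ± 0.15), Ddx4 was not called and all the others fell. Figla was not listed in total RNA. The summed value of the other 11 there was 15166 and 14574 at 0 h and 15975 and 15196 at 8 h. Of 12 granulosa and cumulus markers, 4 were in the ribosome-bound table (Cyp19a1, Fshr, Nr5a2 and Serpine2), and their summed value was 199 and 207 at 0 h and 524 and 529 at 8 h, while Amh and Foxl2 were in neither table. Serpine2 gave most of that rise, with means of 111 and 369. Cyp19a1 also rose, with means of 34.0 and 85.5 (log2 change 1.31 ± 0.23, adjusted p = 0.000189 in limma). Nr5a2 had means of 48.4 and 57.3 and Fshr of 9.76 and 14.8, and neither was called. The part of these marker changes in the Zfp results was not tested. In bulk samples, fewer cells and less RNA per cell cannot be told apart.

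Per kb of exon, Zfp57, a KRAB zinc finger protein that protects imprinted marks and has a maternal effect, was the highest Zfp gene at 0 h in both tables. It had 353 per kb on ribosomes and 865 per kb in total RNA. Zfp592, which works with Zfp687 and Zmynd8 in transcription, was second in both tables, at 156 per kb on ribosomes and 166 per kb in total RNA. Zfp280b followed on ribosomes at 98.9 per kb and Zfp108 in total RNA at 119 per kb. On ribosomes the replicates of these 3 genes did not overlap. In total RNA those of Zfp108 overlapped those of the next gene, Zfp280b, at 102 per kb. The median member was low and had a value of 25.8 to 30.4 in the ribosome-bound libraries, against 40.6 to 43.5 for all genes.

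As a share of all listed signal, the Zfp genes made up 1.02% and 0.993% of the 2 ribosome-bound libraries at 0 h. They made up 1.20% and 1.17% at 2 h, 1.18% and 1.24% at 4 h, 1.21% and 1.24% at 6 h, and 1.24% and 1.23% at 8 h. The libraries of every later time lay above both libraries of 0 h. This share is a sum, so high genes such as Zfp57, which rose, weigh most in it. The median value of the Zfp genes on ribosomes was 26.0 and 25.8 at 0 h and 27.2 and 30.4 at 8 h. In total RNA the share was 1.44% and 1.48% at 0 h and 1.45% and 1.47% at 8 h, and the replicates of these times overlapped.

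The comparisons with 0 h ask which stored messages took a larger or smaller share of the ribosome-bound RNA as meiosis went on. Values are relative to library size, so a change in the whole amount of ribosome-bound RNA would not show. On ribosomes, more Zfp genes rose than fell at 4, 6 and 8 h. A gene was called at an adjusted p of at most 0.05 (limma on log2(value + 1), Benjamini-Hochberg over all genes of the table). At 2 h, 1 of 149 Zfp genes rose and none fell, against 1.47% of all genes called, 0.729% higher and 0.742% lower. At 4 h, 23 rose (15.4%) and 1 fell, where 15.7% of all genes were called, 9.16% higher and 6.56% lower. At 6 h, 26 rose (17.4%) and none fell, where 27.9% of all genes were called, 14.6% higher and 13.3% lower. At 8 h, 33 rose (22.1%) and 9 fell (6.04%), where 42.1% of all genes were called, 20.2% higher and 21.8% lower. The share that rose at 8 h was thus near that of all genes, and the share that fell was lower. Zfp genes had lower values than all genes (medians of 25.8 to 30.4 against 40.6 to 43.5), and the part of level in these shares was not tested. The median log2 change of the Zfp genes was 0.20, 0.17, 0.12 and 0.17 at 2, 4, 6 and 8 h, against 0.01, -0.01, -0.03 and -0.06 for all genes. These times share the 0 h libraries.

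Leaving out 1 library moved the early counts: 8 genes were called at 4 h without the 4 h replicate 1, 12 without the 0 h replicate 2, and 17 at 6 h without the 6 h replicate 2. When only the 2 times compared were fitted, 8 genes were called at 4 h, and the calls of Zfp735 at 2 h, Zfp445 and Zfp940 at 4 h, Zfp148 and Zfp207 at 6 h, and the rises of Zfp207, Zfp451 and Zfp532 and the falls of Zfp185, Zfp946 and Zfp956 at 8 h on ribosomes, and that of Zfp940 at 8 h in total RNA, did not hold. Changes were also corrected for the exon length of each gene and the GC of its longest transcript (the length and GC correction). After it, 15 Zfp genes rose (10.1%) and 2 fell at 4 h, where 7.85% of all genes rose and 5.50% fell. At 6 h, 19 rose (12.8%) and 5 fell (3.36%), where 13.5% of all genes rose and 11.1% fell. At 8 h, 26 rose (17.4%) and 17 fell (11.4%), where 19.6% of all genes rose and 18.1% fell. The share that rose was then below that of all genes at 6 and 8 h, and the share that fell stayed below it at all 3 times by a smaller gap. The median log2 change of the Zfp genes was then 0.13 at 2 h and 0.09 at 4 h, against 0.20 and 0.17 without the correction.

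**Figure D1:**
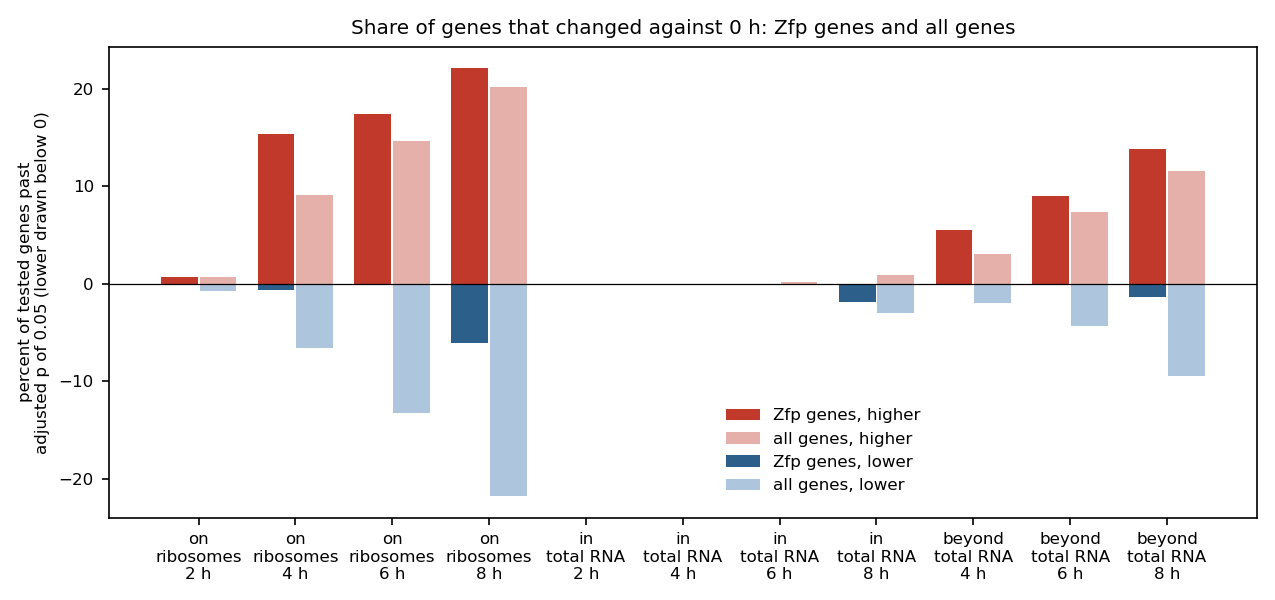
Bars give the percent of tested genes past an adjusted p of 0.05 against 0 h, higher above the axis and lower drawn below it, for Zfp genes (dark) and all genes (light) in each comparison. At 8 h on ribosomes the dark bars reach 22.1% higher and 6.04% lower, and the light bars 20.2% and 21.8%.

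Zfp616 had the largest rise on ribosomes. It is a KRAB gene with up to 18 fingers in an annotated protein (ENSMUSG00000069476.13, mm10 chr11:74069955-74087292, + strand), and its 3′ end with a CPE is printed above. On ribosomes it was at 49.9 and 43.1 at 0 h, 72.2 and 64.9 at 2 h, 135 and 143 at 4 h, 216 and 235 at 6 h, and 199 and 238 at 8 h. Its replicates did not overlap between 0 h and any later time. The log2 change was 1.56 ± 0.18 (SE, adjusted p = 2.16e-05) at 4 h and 2.21 ± 0.18 (adjusted p = 7.87e-08) at 8 h. In total RNA it was at 92.5 and 111 at 0 h and at 95.3 and 100.1 at 8 h, which overlap (log2 change -0.05 ± 0.18, adjusted p = 0.91).

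Zfp735, a KRAB gene with 7 fingers on the same chromosome (ENSMUSG00000060630.7, chr11:73688778-73713798, + strand), lies 356157 bp from Zfp616 and moved early. It was at 39.4 and 37.0 on ribosomes at 0 h, 71.3 and 69.0 at 2 h, 128 and 122 at 4 h, 129 and 154 at 6 h, and 144 and 157 at 8 h. Every later replicate was above both at 0 h. Zfp735 was the 1 Zfp gene called at 2 h, with a log2 change of 0.86 ± 0.19 (adjusted p = 0.0281). That call did not hold without the 0 h replicate 2 (0.81, adjusted p = 0.0624), without the 2 h replicate 1 (0.84, adjusted p = 0.267), without the 2 h replicate 2 (0.88, adjusted p = 0.21) or after the length and GC correction (0.59, adjusted p = 0.123). At 8 h its log2 change was 1.95 ± 0.19 (adjusted p = 4.43e-07), and 1.22 (adjusted p = 6.36e-05) after that correction. In total RNA it was at 54.2 and 69.2 at 0 h and 55.5 and 71.6 at 8 h.

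Zfp131, a zinc finger protein with a BTB domain (ENSMUSG00000094870.7, chr13:119765187-119790889, - strand), was at 28.3 and 41.8 on ribosomes at 0 h, 60.7 and 54.8 at 2 h, 89.9 and 73.4 at 4 h, 91.5 and 127 at 6 h, and 105 and 119.8 at 8 h. The replicates of each later time were above those of 0 h. Its log2 change at 8 h was 1.68 ± 0.24 (adjusted p = 2.87e-05), while in total RNA it was 0.01 ± 0.22 (adjusted p = 0.985).

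Other large rises began from low values. Zfp813-ps, an annotated processed pseudogene (ENSMUSG00000101373.2, chr1:117625522-117628027, + strand), was at 11.3 and 6.38 on ribosomes at 0 h and at 28.4 and 41.5 at 8 h (log2 change 1.89 ± 0.37, adjusted p = 0.000553). Since 52.4% of its 31-base words occur in transcripts of other genes, on either strand, its reads may come from another gene. A second gene of the same symbol, a lincRNA, was in the ribosome-bound table only and was not called.

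Zfp526, with 13 fingers and no KRAB pattern (ENSMUSG00000046541.9, chr7:25221425-25227507, + strand), was at 11 and 5.5 on ribosomes at 0 h, 20.8 and 26.1 at 2 h, 22.8 and 23.2 at 4 h, 30.7 and 29.3 at 6 h, and 39.9 and 22.5 at 8 h. All later replicates were above 0 h, with a log2 change of 1.81 ± 0.37 (adjusted p = 0.000876) at 8 h. Zfp513 (ENSMUSG00000043059.16, chr5:31198981-31202303, - strand) was at 27.8 and 16.6 at 0 h and at 81.6 and 70.3 at 8 h, with a log2 change of 1.77 ± 0.32 (adjusted p = 0.000253). Its replicates did not overlap.

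Zfp760, a KRAB gene with 16 fingers (ENSMUSG00000067928.6, chr17:21707741-21725636, + strand), was listed in the ribosome-bound table only. It was at 8.97 and 3.79 at 0 h and at 30.6 and 16.6 at 8 h, with a log2 change of 1.77 ± 0.46 (adjusted p = 0.00524). The call did not hold without the 0 h replicate 2 (1.24, adjusted p = 0.0635) or without the 8 h replicate 1 (1.35, adjusted p = 0.0813). Over the 5 mean log2 values of the times, the members most like Zfp616 were Zfp813-ps (Pearson r = 0.996), Zfp760 (0.992) and Zfp957 (0.990).

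Zfp57 stood out by its level. It was at 1433 and 1244 on ribosomes at 0 h, 1892 and 1809 at 2 h, 1868 and 2171 at 4 h, 2102 and 2040.2 at 6 h, and 2221 and 2179 at 8 h (ENSMUSG00000036036.15, chr17:37001163-37010635, + strand). All later replicates were above both at 0 h, and the rise was smaller than those above. Its log2 change was 0.59 (adjusted p = 0.00422) at 4 h and 0.72 ± 0.13 (adjusted p = 0.000235) at 8 h. In total RNA it was at 3356 and 3193 at 0 h and at 3366 and 3186 at 8 h, with a log2 change of 0.00 ± 0.11 (adjusted p = 0.998).

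**Figure D2:**
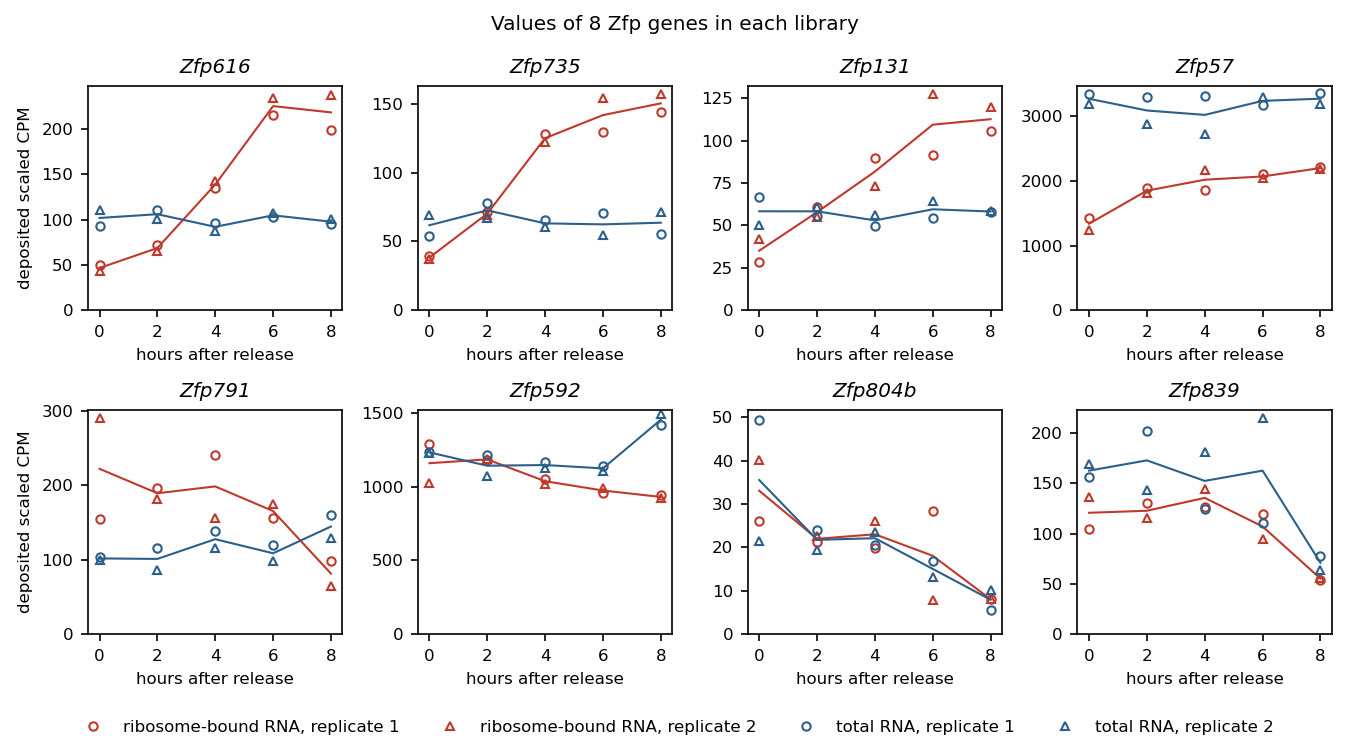
Points are the deposited scaled CPM of each replicate of 8 Zfp genes against hours after release, with ribosome-bound RNA in red, total RNA in blue and lines through the means; the 2 tables were scaled separately, so heights are not comparable between colours. Zfp616, Zfp735, Zfp131 and Zfp57 rise and Zfp791 falls in red, with no call in blue at 8 h, and Zfp804b and Zfp839 fall in both.

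Several other members, chosen after their values were seen because their call at 8 h held with any 1 library left out, rose from moderate levels. Zfp654 was at 105 and 116 on ribosomes at 0 h and at 302 and 302 at 8 h (log2 change 1.44 ± 0.18, adjusted p = 6.12e-06), and at 0.79 (adjusted p = 0.00153) after the length and GC correction. Zfp957 was at 177 and 122 at 0 h and at 328 and 343 at 8 h (1.19 ± 0.17, adjusted p = 3.86e-05). The replicates of both genes were apart. In all, 21 of the 33 rises and 5 of the 9 falls at 8 h held with any 1 library left out, and 23 of the 33 and 8 of the 9 held after the length and GC correction.

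Most falls on ribosomes were called at 8 h, and 1, that of Zfp940, at 4 h. Zfp791, a KRAB gene with 15 fingers (ENSMUSG00000074194.4, chr8:85108553-85123095, - strand), was at 154 and 289.6 on ribosomes at 0 h, 196 and 182 at 2 h, 241 and 156 at 4 h, 155 and 175 at 6 h, and 98.3 and 64.2 at 8 h. Only the replicates of 8 h were below those of 0 h without overlap. The log2 change was -1.40 ± 0.26 (adjusted p = 0.000428). In total RNA Zfp791 was at 104 and 99.4 at 0 h and 159 and 129 at 8 h (0.50 ± 0.19, adjusted p = 0.168).

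Zfp804b, with 1 finger (ENSMUSG00000092094.5, chr5:6769010-7344756, - strand), had the largest fall in both kinds of RNA. On ribosomes it was at 26.0 and 40.2 at 0 h, 21.4 and 22.6 at 2 h, 19.9 and 26.2 at 4 h, 28.4 and 7.79 at 6 h, and 8.08 and 8.00 at 8 h. In total RNA it was at 49.5 and 21.6 at 0 h and at 5.62 and 10.2 at 8 h. The 8 h replicates lay below the 0 h replicates in both tables. The log2 change was -1.88 ± 0.45 (adjusted p = 0.00296) on ribosomes and -1.97 ± 0.40 (adjusted p = 0.00615) in total RNA. The call in total RNA did not hold without the 0 h replicate 1 (-1.39, adjusted p = 0.236) or the 8 h replicate 1 (-1.59, adjusted p = 0.0638). Zfp653 (r = 0.989), Zfp330 (0.963) and Zfp512 (0.958) were most like it over the 5 times on ribosomes.

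Zfp839 (ENSMUSG00000021271.4, chr12:110850253-110869996, + strand) also fell in both kinds of RNA at 8 h. It was at 105 and 136 on ribosomes at 0 h and at 54.3 and 56.2 at 8 h (-1.10 ± 0.20, adjusted p = 0.000278; -0.72, adjusted p = 0.00867 after the length and GC correction). In total RNA it was at 156 and 169 at 0 h and 77.9 and 64.0 at 8 h, with a log2 change of -1.19 ± 0.25 (adjusted p = 0.0103). No replicates overlapped between these times. The call in total RNA did not hold without the 0 h replicate 1 (-1.25, adjusted p = 0.0896) or replicate 2 (-1.13, adjusted p = 0.086).

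Zfp512 (chr5:31452431-31481754, + strand) was at 28.5 and 33.9 on ribosomes at 0 h and at 12.4 and 10.1 at 8 h (-1.39 ± 0.37, adjusted p = 0.00545). Zfp653 (chr9:22055411-22071376, - strand) was at 73.9 and 50.7 at 0 h and at 21.0 and 29.0 at 8 h (-1.27 ± 0.27, adjusted p = 0.00121). Zfp821, whose CPE is printed above, was at 36.1 and 42.6 at 0 h and at 16.9 and 22 at 8 h (-0.99 ± 0.29, adjusted p = 0.0111). The replicates of all 3 genes were apart between the times, but the call of Zfp821 did not hold without the 0 h replicate 2 (-0.87, adjusted p = 0.0629) or the 8 h replicate 1 (-0.80, adjusted p = 0.0905).

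In total RNA almost no Zfp gene was called. None of 159 was called at 2, 4 or 6 h, where 0%, 0% and 0.202% of all genes were called (0.177% higher and 0.0253% lower at 6 h), and 1, 4 and 8 of them had an unadjusted p under 0.05 in limma, as did 2.85%, 4.38% and 7.74% of all genes. At 8 h none rose and 3 fell (Zfp804b, Zfp940 and Zfp839), where 3.97% of all genes were called, 0.947% higher and 3.02% lower. The median log2 change was between -0.04 and 0.03 at the 4 times. Left out 1 library at a time, the count at 8 h lay between 0 and 5: 0 without the 0 h replicate 1, 1 without the 0 h replicate 2 and 5 without the 8 h replicate 2.

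Zfp940 (chr7:29833620-29853669, - strand) was at 36.1 and 27.3 in total RNA at 0 h and at 10.1 and 13.5 at 8 h, with a log2 change of -1.35 ± 0.34 (adjusted p = 0.029). On ribosomes it was the 1 Zfp gene that fell at 4 h, from 20.3 and 15.2 to 4.94 and 7.06 (-1.43 ± 0.44, adjusted p = 0.0347). Replicates did not overlap in either comparison. The call in total RNA did not hold without the 0 h replicate 1 (-1.16, adjusted p = 0.321), the 0 h replicate 2 (-1.55, adjusted p = 0.0772) or the 8 h replicate 1 (-1.16, adjusted p = 0.151). The call on ribosomes at 4 h did not hold without the 0 h replicate 1 (-1.23, adjusted p = 0.153), the 0 h replicate 2 (-1.62, adjusted p = 0.0533) or the 4 h replicate 1 (-1.20, adjusted p = 0.19).

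**Figure D3:**
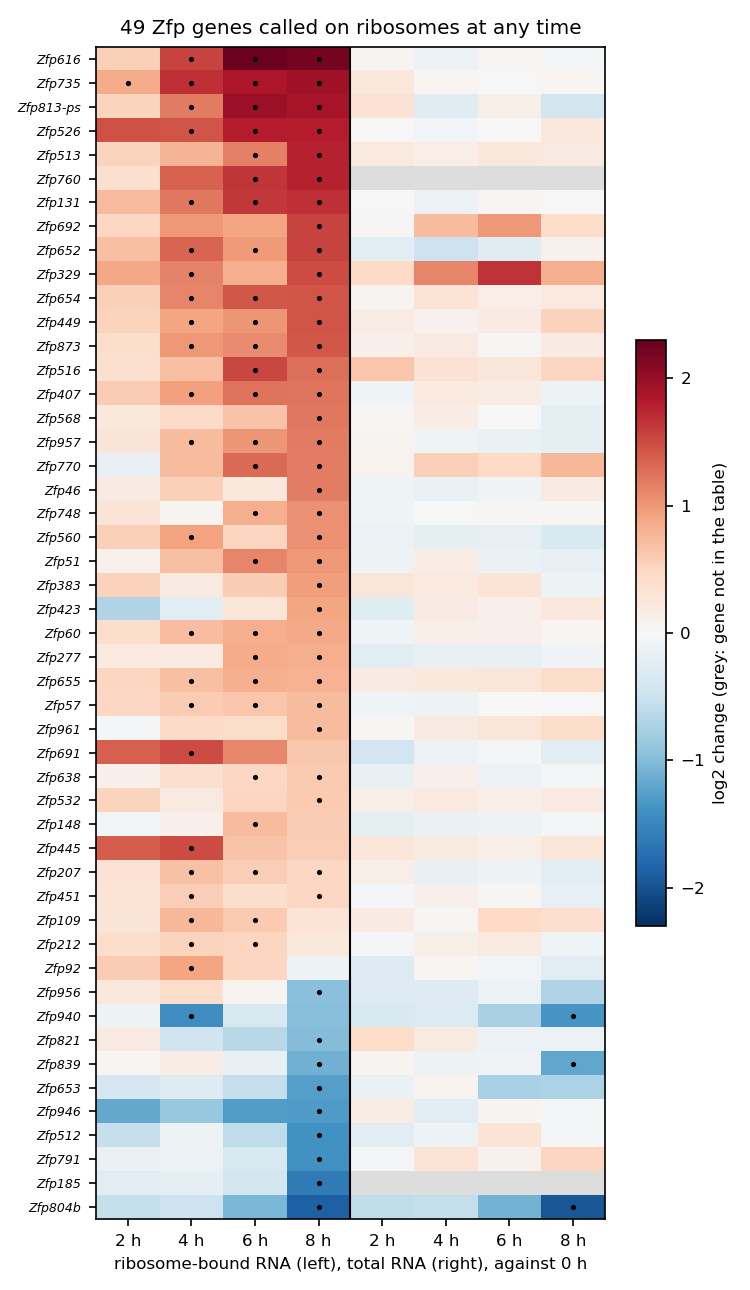
Rows are the 49 Zfp genes called on ribosomes at any time, columns are 2, 4, 6 and 8 h against 0 h in ribosome-bound (left) and total RNA (right), colour is the log2 change and a dot marks an adjusted p of at most 0.05. Rises fill most of the left block, while 3 dots (Zfp940, Zfp839 and Zfp804b) stand in the right block.

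The change on ribosomes was then set against the change in total RNA of the same gene, as an interaction in a fit of both tables over the 7346 genes they share. More Zfp genes were higher than lower on ribosomes beyond total RNA, again relative to library size. At 4 h, 8 of 145 were higher and none lower, where 5.10% of all genes were called, 3.09% higher and 2.01% lower. At 6 h, 13 were higher and none lower, where 11.7% were called, 7.34% higher and 4.37% lower. At 8 h, 20 were higher (13.8%) and 2 lower (1.38%), where 21.0% were called, 11.6% higher and 9.43% lower. The median difference was 0.11, 0.19 and 0.23 at these times, against 0.00, -0.02 and -0.03 for all genes. After the length and GC correction, 7 were higher at 4 h (4.83%, against 2.70% of all genes) and 9 at 6 h (6.21%, against 6.11%), with none lower. At 8 h, 14 were higher (9.66%) and 5 lower (3.45%), where 10% of all genes were higher and 8.79% lower.

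The largest differences at 8 h were those of Zfp813-ps (2.32 ± 0.51, adjusted p = 0.0019), Zfp616 (2.26 ± 0.24, adjusted p = 4.93e-07), Zfp735 (1.91 ± 0.28, adjusted p = 3.29e-05) and Zfp131 (1.67 ± 0.32, adjusted p = 0.000614). For these genes total RNA moved by -0.43, -0.05, 0.04 and 0.01 on the log2 scale, so most of each difference lay in the ribosome-bound libraries. After the length and GC correction the difference of Zfp735 was 1.26 (adjusted p = 0.00191). Zfp57 also gained beyond total RNA (0.72 ± 0.17, adjusted p = 0.00291), as did Zfp957 (1.39 ± 0.24, adjusted p = 0.000186) and Zfp654 (1.21 ± 0.24, adjusted p = 0.000854; 0.67 after the correction). For Zfp526 the difference was 1.56 ± 0.48 (adjusted p = 0.0217), and without the ribosome-bound 0 h replicate 2 it was 1.12 (adjusted p = 0.113), without the ribosome-bound 8 h replicate 1 1.16 (adjusted p = 0.121), without the total 0 h replicate 1 1.35 (adjusted p = 0.0995) and without the total 8 h replicate 1 1.47 (adjusted p = 0.067).

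Zfp791 and Zfp592 were the 2 genes lower on ribosomes beyond total RNA at 8 h. The difference for Zfp791 was -1.90 ± 0.35 (adjusted p = 0.000455) and held with any 1 library left out. Zfp592 (ENSMUSG00000005621.11, chr7:80993681-81045164, + strand) was at 1292 and 1027 on ribosomes at 0 h and 941 and 920.2 at 8 h, and at 1235 and 1230.4 in total RNA at 0 h and 1416 and 1491 at 8 h. Its replicates were apart in both tables, in opposite directions. Neither change was called alone (-0.31 ± 0.13, adjusted p = 0.0708 on ribosomes; 0.24 ± 0.11, adjusted p = 0.238 in total RNA), and their difference was -0.54 ± 0.16 (adjusted p = 0.019). That call did not hold after the length and GC correction (-0.40, adjusted p = 0.0669), without the ribosome-bound 0 h replicate 1 (-0.38, adjusted p = 0.103) or 8 h replicate 2 (adjusted p = 0.0547), or without the total 0 h replicate 1 (adjusted p = 0.0559), 0 h replicate 2 (adjusted p = 0.0552) or 8 h replicate 2 (adjusted p = 0.0567).

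**Figure D4:**
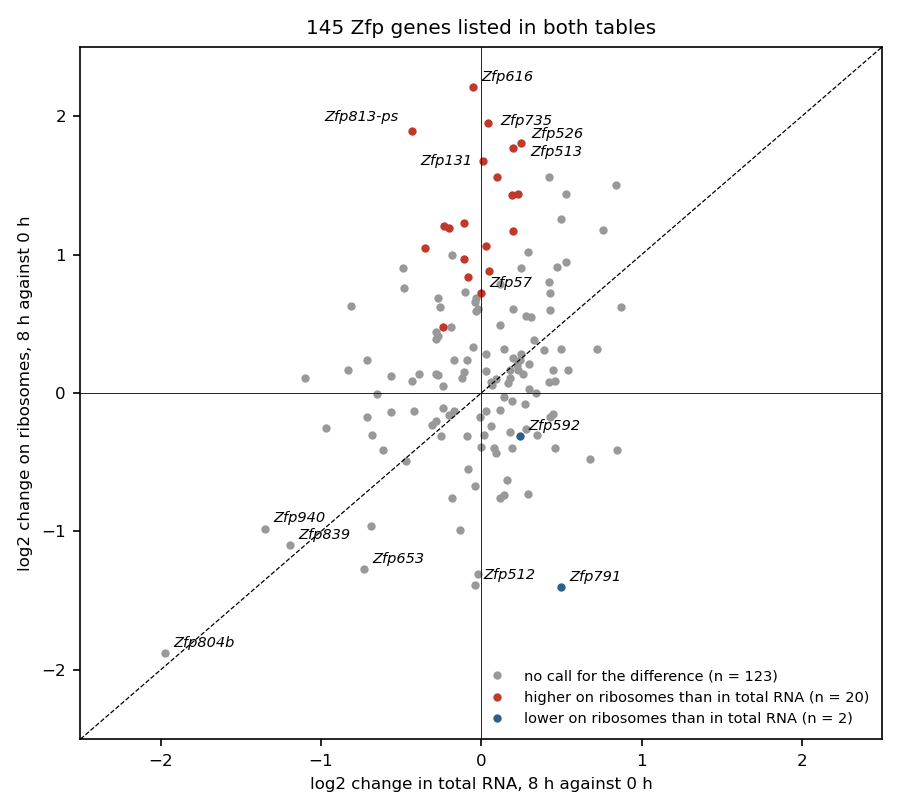
Each point is 1 of the 145 Zfp genes in both tables, with its log2 change at 8 h against 0 h in total RNA on the horizontal axis and on ribosomes on the vertical axis; red and blue mark an adjusted p of at most 0.05 for the difference, and the dashed line marks equal change. The 20 red points lie above the line, many near 0 on the horizontal axis, and the 2 blue points are Zfp791 and Zfp592.

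Members were also read by their known roles, from lists chosen with earlier results of these data known. At 8 h on ribosomes, 20.2% of all genes rose and 21.8% fell, and the small lists are given as counts beside that. Among genes of imprint and retroelement silencing, 3 of 4 rose on ribosomes at 8 h and none fell (Zfp57, Zfp568 and Zfp961), and none of 5 was called in total RNA. Of the 8 genes of this list, Zfp708, Zfp809 and Zfp982 were in neither table and Zfp932 was in the total table only. Zfp568, which represses a placental Igf2 transcript, was at 49.8 and 81.3 at 0 h and at 118 and 186 at 8 h (1.21 ± 0.26, adjusted p = 0.00141). Zfp961 was at 72.5 and 84.8 at 0 h and at 131 and 128 at 8 h (0.72 ± 0.22, adjusted p = 0.0153). Neither gene's replicates overlapped, but the call of Zfp961 did not hold without the 0 h replicate 1 (0.61, adjusted p = 0.0799), the 8 h replicate 1 (0.70, adjusted p = 0.0699) or the 8 h replicate 2 (0.73, adjusted p = 0.0663), or after the length and GC correction (0.41, adjusted p = 0.147).

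Zfp445, which acts with Zfp57 on imprints (ENSMUSG00000047036.7, chr9:122844529-122866006, - strand), was called on ribosomes at 4 h and not at 8 h. On ribosomes it was at 16.5 and 7.06 at 0 h, 33.6 and 26.8 at 2 h, 44 and 24.1 at 4 h, 13.3 and 23.8 at 6 h, and 12.2 and 22.1 at 8 h. The replicates of 2 and 4 h were above those of 0 h, and those of 6 and 8 h overlapped them. Its log2 change was 1.5 ± 0.44 (adjusted p = 0.027) at 4 h and 0.56 ± 0.44 (adjusted p = 0.323) at 8 h. The call at 4 h did not hold without the 0 h replicate 2 (0.94, adjusted p = 0.21), without the 4 h replicate 1 (1.08, adjusted p = 0.261) or after the length and GC correction (1.33, adjusted p = 0.0515).

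Of the 3 genes of spindle, ubiquitin and SUMO, 2 rose on ribosomes at 8 h, both by little, where 20.2% of all genes rose. Zfp207 (BuGZ), which binds Bub3 and acts at spindle and kinetochore (ENSMUSG00000017421.18, chr11:80383279-80405733, + strand), was at 332 and 230.5 at 0 h, 357 and 339 at 2 h, 455 and 425 at 4 h, 382 and 434 at 6 h, and 395 and 379 at 8 h. Its later replicates were above those of 0 h, with a log2 change of 0.48 ± 0.16 (adjusted p = 0.0244) at 8 h and a difference from total RNA of 0.72 ± 0.22 (adjusted p = 0.0224). Without the ribosome-bound 0 h replicate 2 these were 0.22 (adjusted p = 0.297) and 0.46 (adjusted p = 0.141), and after the length and GC correction 0.09 (adjusted p = 0.708) and 0.38 (adjusted p = 0.255). The call on ribosomes also did not hold without the 8 h replicate 1 (0.46, adjusted p = 0.101) or replicate 2 (0.51, adjusted p = 0.0734), nor the difference without the ribosome-bound 8 h replicate 1 (adjusted p = 0.0576), the total 0 h replicate 1 (adjusted p = 0.118) or the total 8 h replicate 2 (adjusted p = 0.0747).

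Zfp451, a SUMO ligase, was at 118 and 119.9 on ribosomes at 0 h and at 157 and 176 at 8 h (0.48 ± 0.17, adjusted p = 0.0334), with replicates apart. Its call did not hold without any 1 of the 4 libraries of these times (0.39 to 0.56) or after the length and GC correction (0.06, adjusted p = 0.804). Zfp91, a ubiquitin ligase, was at 173 and 142 at 0 h and 171 and 175 at 8 h and was not called (0.14 ± 0.16, adjusted p = 0.518).

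Of the RNA-binding and ribosome-linked members, 1 of 6 (16.7%) rose on ribosomes at 8 h and none fell, a share near the 20.2% of all genes. That was Zfp638, at 186 and 193 at 0 h and 250.1 and 335 at 8 h (0.61 ± 0.16, adjusted p = 0.00607), and its call did not hold without the 8 h replicate 2 (0.40, adjusted p = 0.117) or after the length and GC correction (0.14, adjusted p = 0.498). Zfp598, a ubiquitin ligase that acts on collided ribosomes, was at 106 and 99.6 at 0 h and 91.6 and 75.2 at 8 h (-0.30 ± 0.20, adjusted p = 0.222). Zfp106 was not called either (0.09 ± 0.32, adjusted p = 0.838). Zfp36 and Zfp36l2, CCCH proteins that bind AU-rich elements, were in the total table only, at low values: Zfp36 had 20.7 and 10.7 at 0 h and 8.72 and 10.2 at 8 h, and Zfp36l2 had 10.9 and 7.85 at 0 h and 11.9 and 8.92 at 8 h. Neither was called (adjusted p = 0.472 and 0.897).

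Of the members linked to pluripotency or general transcription, 1 of 8 (12.5%) rose on ribosomes at 8 h and none fell. That was Zfp532, at 54.5 and 61.5 at 0 h and 93.4 and 84.8 at 8 h (0.61), whose call did not hold without the 0 h replicate 1 (adjusted p = 0.0831), the 8 h replicate 1 (adjusted p = 0.11) or the 8 h replicate 2 (adjusted p = 0.0536). Zfp148 (ZBP-89) was called at 6 h (0.73, adjusted p = 0.0449), though not without the 0 h replicate 2 (0.55, adjusted p = 0.205) or the 6 h replicate 1 (0.49, adjusted p = 0.326) or after the length and GC correction (0.33, adjusted p = 0.386), and not at 8 h (0.59 ± 0.26, adjusted p = 0.0769). Zfp281 and Zfp27 were in the total table only and were not called at 8 h (0.81, adjusted p = 0.463 and -0.68, adjusted p = 0.392). Zfp36l1, Zfp42, Zfp143 and Zfp622 were in neither table and were not analysed here.

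The features that the symbol rule did not use were set beside the changes on ribosomes at 8 h, as counts without a test, where 20.2% of all genes rose and 21.8% fell. Of members with a KRAB pattern, 13 of 71 rose (18.3%) and 2 fell (median log2 change 0.15), and of coding members without one, 19 of 75 rose (25.3%) and 7 fell (0.17). By number of fingers, 1 of 12 members with 0 or 1 finger rose (8.33%) and 3 fell (-0.18), 11 of 39 with 2 to 7 rose (28.2%) and 4 fell (0.24), 10 of 52 with 8 to 12 rose (19.2%) and 1 fell (0.14), and 10 of 43 with 13 or more rose (23.3%) and 1 fell (0.28). The share that rose did not follow the number of fingers in order. Of members with another member within 200 kb, 9 of 53 rose (17%) and 2 fell, and of the rest, 24 of 96 rose (25%) and 7 fell. Of those sharing at least 10% of their sequence words, 3 of 33 rose (9.09%) and 1 fell.

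With a CPE in the last 100 bases, 7 of 21 Zfp genes rose (33.3%) and 2 fell (median 0.24), close to the 35.2% and 10.8% of other genes with one. Without one, 25 of 125 Zfp genes rose and 7 fell (5.60%), where 16.5% of other genes without one rose and 25.8% fell. With the whole 3′ UTR searched, 29 of 107 Zfp genes with a CPE rose and 5 fell. Of those without one, 3 of 39 rose and 4 fell (10.3%), against 41.7% of other genes without one that fell. Over all genes, 20.2% rose and 21.8% fell. The remaining shares of other genes in this wider search are not given here, so the rises are not read as particular to the family. For some members the longest coding transcript encodes a short protein, as for Zfp616 (98 residues), Zfp473 (103) and Zfp655 (103). Other annotated proteins of these genes had up to 18, 16 and 6 fingers. The whole 3′ UTR searched for them may thus hold coding sequence of a longer protein.

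All genes were put in 4 equal groups by GC content, and the changes of the Zfp genes and of all genes were read in each. In the group lowest in GC (under 44.2%), 20 of 71 Zfp genes rose (28.2%) and 3 fell (median 0.32), against 34.9% and 11.9% of all genes there (0.37). In the group highest in GC (53.0% or more), 5 of 31 rose (16.1%) and 3 fell (9.68%, median 0.08), against 8.71% and 32.2% of all genes there (-0.44). In the group just below it (48.4% to 53.0%) the Zfp median was 0.14 and that of all genes -0.22, so the gap between the medians was wider in the 2 groups richest in GC.

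**Figure D5:**
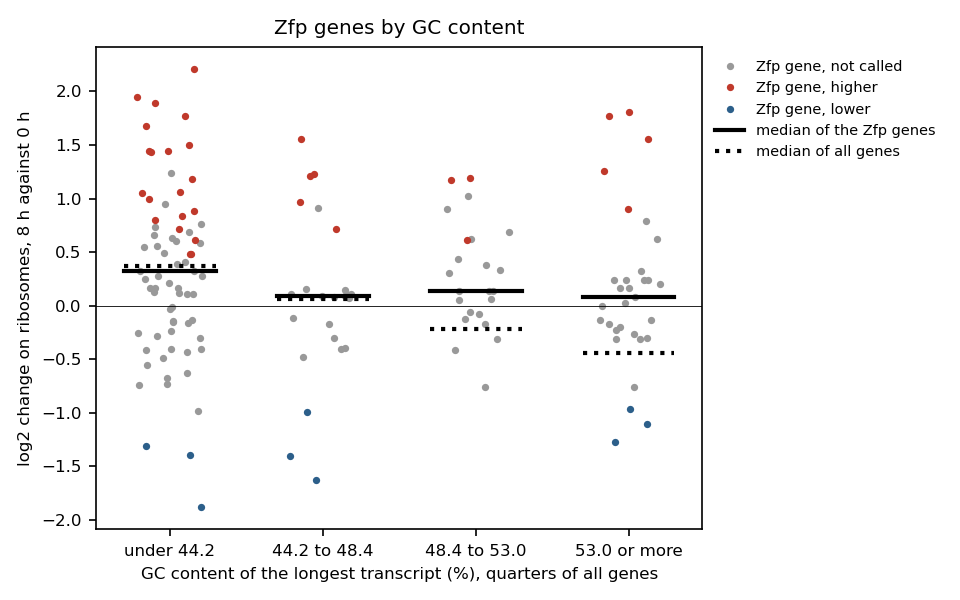
Each point is a Zfp gene in the ribosome-bound table, placed by the GC content of its longest transcript in 4 equal groups of all genes (horizontal) and by its log2 change on ribosomes at 8 h (vertical); solid lines are Zfp medians and dotted lines medians of all genes. The Zfp medians run from 0.32 in the lowest group to 0.08 in the highest, and those of all genes from 0.37 to -0.44.

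Of 24 KRAB cofactor and heterochromatin genes, 5 rose (20.8%) and 9 fell (37.5%) on ribosomes at 8 h. Of all genes, 20.2% rose and 21.8% fell, so the share that rose was near theirs and the share that fell was higher. Those that fell were Uhrf1, Dnmt3l, Dnmt3a, Hdac2, Mta1, Mta3, Mphosph8, Trim24 and Dppa3. The largest rises were those of Rbbp7 (2.21 ± 0.14, adjusted p = 5.21e-09) and Smarcad1 (1.80 ± 0.19, adjusted p = 1.2e-06), both chromatin proteins. Trim28 rose by 0.70 ± 0.20 on the log2 scale (adjusted p = 0.00974) and Setdb1 by 0.42 ± 0.16 (adjusted p = 0.0372), and neither was called beyond total RNA (adjusted p = 0.402 and 0.51). Uhrf1 and Dnmt3l, which act in DNA methylation, fell by 1.25 ± 0.13 (adjusted p = 1.45e-06) and 1.90 ± 0.22 (adjusted p = 3.82e-06). Of 40 other C2H2 genes (Zbtb, Zkscan, Zscan and Klf), 10 rose (25%) and 3 fell (7.50%), with a median of 0.26, beside 33 and 9 of 149 Zfp genes.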

How the data were processed

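The deposited values are CPM as the authors scaled them (treated as a signal, since library totals differ). Per the submitters' processing notes, reads were handled with Trimmomatic 0.36, FastQC, SAMtools and HISAT2 on mm10, then with HTSeq, limma and edgeR; how genes were filtered and reads scaled is not given in the sources used here. Taking the smallest step between values as 1 read gives 27571236 to 51714900 reads per library.

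The 10 libraries of each kind were fitted together in limma 3.58.1 (R 4.3.3) on log2(value + 1), with a mean-variance trend, a filter of a value of at least 1 in 2 libraries and two-sided, Benjamini-Hochberg adjusted p-values. A fold change on this scale understates changes of low genes. Changes beyond total RNA are interactions over both tables. The fits were tested on simulated data with changes set on ribosomes at 8 h. On ribosomes, 37% of genes changed by 1 on the log2 scale and 67% of those changed by 1.5 were called. Beyond total RNA these shares were 23% and 58%, so many changes of this size were missed in the simulation. It changed 100 genes by each size, whereas 3173 of 7543 genes were called on ribosomes at 8 h in the data. The adjusted p depends on how many genes change, so these shares do not give the share missed in the data. Of 110 calls on ribosomes 6 were false, and of 86 beyond total RNA 5 were. A count test on reads recovered from the steps was not run.

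Members and lists were chosen with earlier results of these data known. Genes named are the 6 largest rises and 6 largest falls on ribosomes at 8 h (mean value of at least 10, replicates apart), up to 4 each way in total RNA and beyond total RNA, the 3 largest at 2 and 4 h, the 3 highest per kb in each table, a panel of 14 genes of known role and the 3 highest members of 1 table only; others were added after their values were seen. Positions, lengths, fingers and 3′ ends come from GENCODE vM21, which holds all members, 124 with the same ID version. The labels do not state that replicate letters pair samples, and the main fits did not pair them. Deviations of same-lettered libraries correlated at -0.107 to 0.0487 on ribosomes, -0.0474 to 0.115 in total RNA and -0.0837 to 0.0363 between the kinds. Low correlations cannot show that samples were unpaired, since paired samples can differ by independent library noise. Alternatives were pseudocounts of 0.5 and 5, no filter, a mean value of at least 10, median centring, a length and GC correction, a replicate block, only the 2 times compared and each library left out. One 3′ end sequence is not reported here.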

Additional observations from a re-analysis of the deposited data

Results flagged for a closer look

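For 22 Zfp genes, the test of the difference between the change on ribosomes and the change in total RNA at 8 h passed an adjusted p of 0.05 in limma. On the log2 scale the difference was highest for Zfp813-ps (2.32), Zfp616 (2.26), Zfp735 (1.91) and Zfp131 (1.67), all higher on ribosomes. It was also higher for Zfp513 (1.57), Zfp526 (1.56), Zfp652 (1.46), Zfp568 (1.44), Zfp560 (1.40), Zfp957 (1.39), Zfp407 (1.34), Zfp873 (1.24), Zfp654 (1.21), Zfp383 (1.07), Zfp748 (1.03), Zfp46 (0.97), Zfp277 (0.92), Zfp60 (0.84), Zfp57 (0.72) and Zfp207 (0.72). It was lower for Zfp791 (-1.90) and Zfp592 (-0.54). In at least 1 of the alternatives run, the call did not hold for Zfp207, Zfp277, Zfp383, Zfp46, Zfp513, Zfp526, Zfp592, Zfp60, Zfp652, Zfp748 and Zfp873. Zfp813-ps shares 52.4% of its sequence words with transcripts of other genes.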

How the results depend on the processing

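No called result changed direction in any alternative. Of the counts of called Zfp genes under an alternative, both directions summed, 203 stayed within 1.5 times of the main count and 22 did not. With the length and GC correction, on ribosomes the falls went from 1 to 2 at 4 h, from 0 to 5 at 6 h and from 9 to 17 at 8 h, the rises from 23 to 15 at 4 h, from 26 to 19 at 6 h and from 33 to 26 at 8 h, and beyond total RNA the falls went from 2 to 5 and the rises from 20 to 14 at 8 h. When only the 2 times were compared, 30 rises and 6 falls were called on ribosomes at 8 h. On ribosomes at 2 h, where 1 gene was called, 2 were called after median centring, none when only the 2 times were compared and 0 to 7 with 1 library left out. At 4 h (24 genes), 8 were called when only the 2 times were compared and 8 to 22 with 1 library left out. At 6 h (26 genes), 17 to 26 were called with 1 library left out, and at 8 h (42 genes) 29 to 43. In total RNA, 0 to 1 was called at 6 h and 0 to 5 at 8 h with 1 library left out. Beyond total RNA, the ranges with 1 library left out were 2 to 9 at 4 h, 8 to 14 at 6 h and 15 to 23 at 8 h. The replicate letter was also used as a replicate block, though the labels state no pairing. With it, 0, 22, 24 and 41 genes were called on ribosomes at 2, 4, 6 and 8 h. It gave 3 calls in total RNA at 8 h, and 9, 13 and 22 beyond total RNA at 4, 6 and 8 h. With 2 replicates a time precision is limited, and a gene that was not called is not shown to be unchanged. The test on recovered reads was not run.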
